A study of Mus musculus with 12 samples.

Results

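Genes of mitosis and of the G2/M transition were followed in mouse uterine epithelial and stromal cells treated with estradiol (E2) or vehicle in co-culture. The set held 40 genes listed by symbol, from the kinases and cyclins of mitotic entry to the proteins of cytokinesis. Each gene was read from the brightest probe set annotated with its symbol alone. This gave 39 of the 40 genes, out of 19938 genes represented in the same way. Ccnb1 was not matched, and Top2a had a choice of 2 probe sets.

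The cells came from CD-1 uteri at day 4 of pseudopregnancy and were separated with enzymes. Sheets of epithelium on inserts coated with matrigel were grown together with stromal cells on cover slips, and every co-culture first spent a night in medium stripped of hormones. The epithelial vehicle and stromal vehicle groups then received ethanol at 0.01% and the epithelial E2 and stromal E2 groups E2 at 10 nM, for 2 days, before the layers were harvested apart. Affymetrix Mouse Gene 1.0 ST arrays gave log2 signals for 3 replicates of each of the 4 groups, 12 arrays in all, and the number of arrays limits the precision. The labels name neither the animals nor the cultures behind a replicate, so the p-values measure the spread between these samples, which may be technical. The labels state neither a genotype nor an age.

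Entry into mitosis is driven by the kinase Cdk1 bound to B-type cyclins, and the spindle checkpoint then holds back anaphase until every chromosome is attached. Transcripts of this machinery accumulate in G2, when B-Myb with the MuvB complex and Foxm1 occupy promoters through the cell cycle genes homology region (CHR). Many of these promoters also hold CCAAT boxes, a separate element. The repressive DREAM complex sits on the same promoters in resting cells. In the uterus, E2 is known for driving epithelial proliferation in large part through signals from the stroma, and stromal cells proliferate before decidualization.

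Promoter sequence was examined for the listed genes as genes of mitosis. The shares below describe that list, and a relation to E2 was not tested. RefSeq (GRCm38.p6) promoters of 300 bases, 250 before and 50 after the start site, were matched for 32 of the 39 genes. The CHR letters TTTGAA occurred on either strand in 26 of 32 (81.2%), against 18.1% of 27025 promoters of the same length. The CCAAT letters occurred in 25 (78.1%, against 37.9%), and both occurred in 23 (71.9%, against 7.12%). The E2F letters TTTGGCGC, TTTCCCGC or TTTCGCGC were in 3 (9.38%, against 1.91%), and the estrogen response element GGTCANNNTGACC was in 0 of 32, against 0.0666% of all promoters. None of these motifs contains another, and a match is a description of the sequence only.

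The 200 bases before the start site are shown for Cdk1, Ccnb2 and Ect2, whose differences are described below, and for Mad2l1, the gene with the lowest adjusted p of the set with E2 in both layers. Capitals mark the CHR and CCAAT letters on either strand (a CCAAT box on the other strand reads ATTGG). Cdk1 lies at chr10:69352913-69353112 on the minus strand, Ccnb2 at chr9:70421555-70421754 on the minus strand, Ect2 at chr3:27153879-27154078 on the minus strand, and Mad2l1 at chr6:66535021-66535220 on the plus strand, all upstream of the annotated start.
Cdk1: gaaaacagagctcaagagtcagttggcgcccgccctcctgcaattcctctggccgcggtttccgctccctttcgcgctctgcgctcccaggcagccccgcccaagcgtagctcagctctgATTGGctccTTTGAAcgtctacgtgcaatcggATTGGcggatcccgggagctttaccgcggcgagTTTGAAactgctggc
Ccnb2: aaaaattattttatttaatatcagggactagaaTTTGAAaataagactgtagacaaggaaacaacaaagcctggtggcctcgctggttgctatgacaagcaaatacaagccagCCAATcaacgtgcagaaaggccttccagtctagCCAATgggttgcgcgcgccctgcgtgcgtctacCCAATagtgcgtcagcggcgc
Ect2: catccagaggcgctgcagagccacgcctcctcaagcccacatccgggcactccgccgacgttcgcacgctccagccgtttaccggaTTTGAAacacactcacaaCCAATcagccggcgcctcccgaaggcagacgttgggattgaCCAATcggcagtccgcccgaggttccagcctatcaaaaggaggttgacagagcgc
Mad2l1: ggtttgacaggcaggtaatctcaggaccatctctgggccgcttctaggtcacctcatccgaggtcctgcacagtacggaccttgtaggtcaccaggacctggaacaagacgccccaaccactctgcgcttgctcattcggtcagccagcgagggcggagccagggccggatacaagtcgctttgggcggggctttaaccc
Cdk1 has 2 CHR and 2 CCAAT matches in these bases, Ccnb2 has 1 and 3, and Ect2 has 1 and 2. Mad2l1 has 0 of either, in this stretch and in its whole 300 bases. Anln had CHR letters at 22 and 29 bases after its start and no CCAAT letters. Kif23 had CHR letters at 3 after and CCAAT letters at 7 before its start. The other genes without CHR letters in the window were Nuf2, Nusap1, Bub1, Cenpe and Birc5, and the others without CCAAT letters were Nuf2, Nusap1, Kif2c, Birc5 and Ndc80.

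Some arrays stood apart on these genes before any comparison of groups. The mean log2 signal of the 39 genes was 7.41, 7.32 and 7.07 on stromal vehicle replicates 1 to 3 and 7.48, 7.49 and 8.0 on stromal E2 replicates 1 to 3. Stromal E2 replicate 3 was the highest of the 6 stromal arrays for 39 of 39 genes, which 15.5% of all probe sets showed. Stromal vehicle replicate 3 was the lowest of the 6 for 36 of 39, all but Ttk, Birc5 and Kif23, against 14.6% of all probe sets. The epithelial means were 7.34, 7.65 and 7.28 under vehicle and 7.76, 7.54 and 7.49 under E2. Epithelial vehicle replicate 2 was the highest of its 3 arrays for 32 of 39 genes (32.8% of all probe sets), and epithelial E2 replicate 1 the highest of its 3 for 34 of 39 (28% of all probe sets).

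The genes spread between replicates more than other probe sets in the stroma. The median SD of the 39 genes was 0.184 under vehicle and 0.302 under E2, against 0.0946 and 0.0804 over all probe sets tested. In the epithelium it was 0.169 and 0.151, against 0.185 and 0.158. Below, results are given with and without the arrays that stood apart. Differences are in log2 units with the standard error from limma, fitted on all 12 arrays, and adjusted p-values are Benjamini-Hochberg adjusted over 23410 probe sets with a gene symbol, passing under 0.05.

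**Figure D1:**
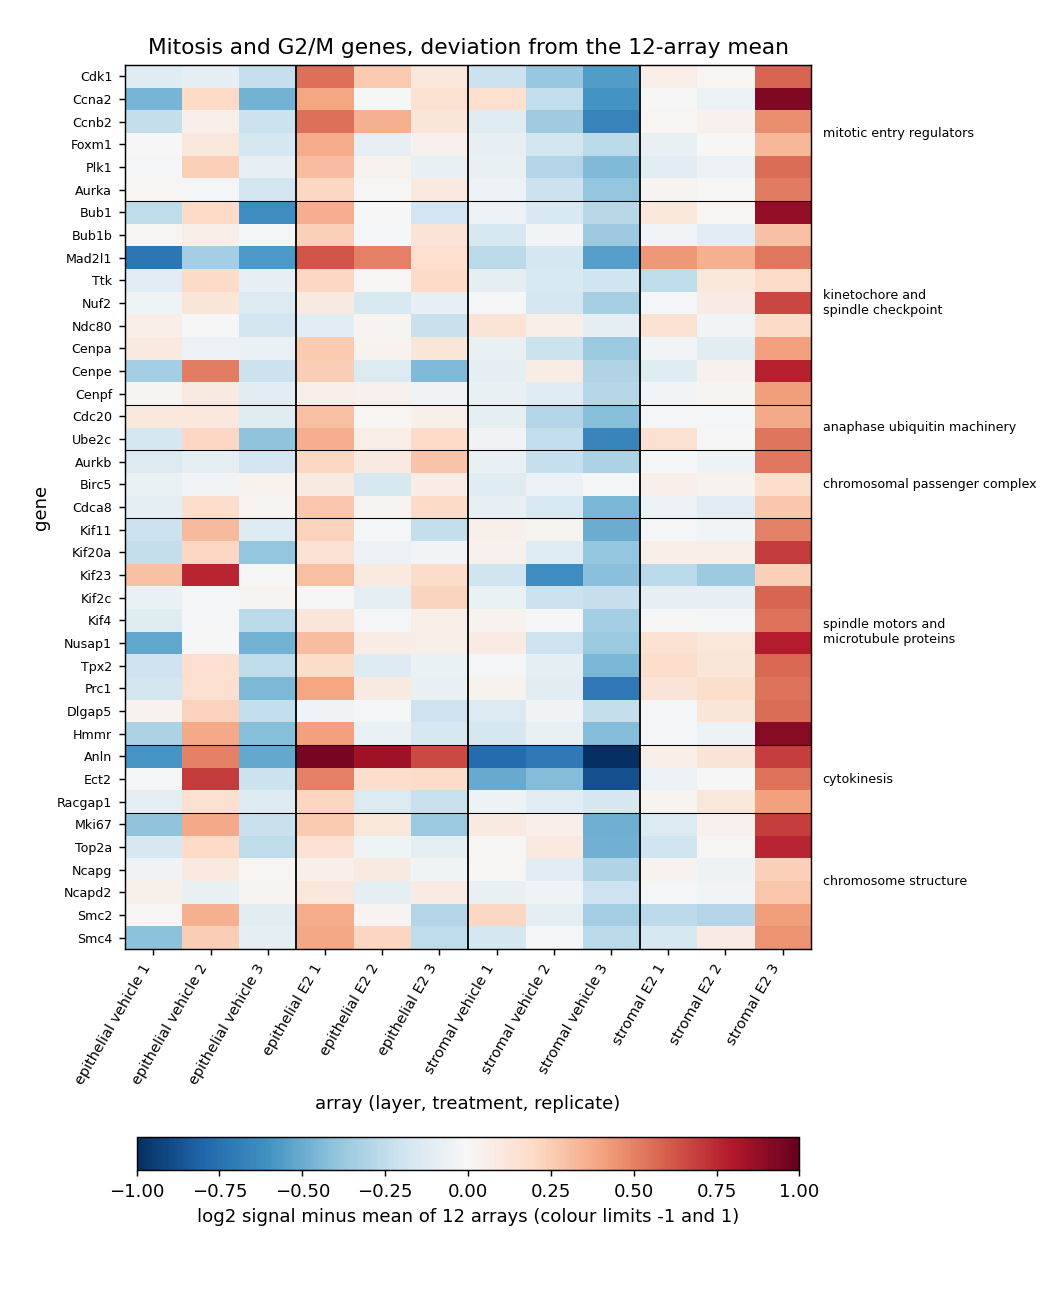
Log2 signal of each of the 39 genes (rows, grouped by role) on each of the 12 arrays (columns, by layer, treatment and replicate), as the deviation from the gene's 12-array mean, with colours limited at -1 and 1. Stromal E2 replicate 3 is the warmest stromal column for all 39 genes, and stromal vehicle replicate 3 the coolest for 36.

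The layers were checked against marker genes in the same arrays. The mean of 19 epithelial markers was 9.26 to 10.99 on epithelial arrays and 6.63 to 6.99 on stromal arrays. The mean of 16 stromal markers was 9.81 to 10.79 on epithelial arrays, against 10.73 to 11.19 on the stromal arrays, so the stromal markers were not absent from the epithelial layer. The mean of 14 leukocyte markers was 8.09 to 9.01 on epithelial and 8.83 to 9.28 on stromal arrays. Endothelial (8), smooth muscle (7) and mesothelial (6) markers were measured too, with mesothelial means of 8.86 to 9.70 on epithelial and 6.77 to 6.95 on stromal arrays. Fewer cells of a type and less RNA per cell cannot be told apart in such bulk samples.

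The first comparison asked whether E2 changed the mitosis genes in the epithelial layer. Mad2l1, the checkpoint protein that binds and holds back Cdc20, rose, and it was the 1 gene of 39 to pass in that layer, while 0 fell. Over all probe sets 1.77% were called higher and 1.12% lower. Of the 39 genes, 31 measured higher (79.5%, against 57.8% of all probe sets), with a median difference of 0.13 (0.03 over all probe sets) and a range from -0.16 to 1.02. The groups did not overlap for 7 genes, all higher with E2, where 6.95% of all probe sets were apart and higher and 8.04% apart and lower. Those 7 were Cdk1, Ccnb2, Mad2l1, Aurkb, Kif4, Nusap1 and Anln.

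Mad2l1 measured 8.30, 8.68 and 8.45 under vehicle and 9.65, 9.53 and 9.19 under E2 in the epithelial layer. Every E2 array stood above every vehicle array. The difference was 0.98 ± 0.14, 1.97-fold, with a limma adjusted p of 0.00489. It passed in 22 of 23 other settings, and on the 6 epithelial arrays fitted alone the adjusted p was 0.0857.

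Anln, the anillin that scaffolds the contractile ring, had the largest epithelial difference but did not pass. Its signals were 8.08, 9.17 and 8.16 under vehicle and 9.62, 9.52 and 9.33 under E2. The groups did not overlap, although vehicle replicate 2 lay just below the lowest E2 array. The difference was 1.02 ± 0.27 (limma adjusted p = 0.0759), and Anln passed when vehicle replicate 2 was left out.

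The regulators of mitotic entry measured higher in 6 of 6, with a median epithelial difference of 0.30, and 0 passed. Cdk1, the kinase of mitotic entry, measured 8.63, 8.66 and 8.52 under vehicle and 9.31, 9.02 and 8.87 under E2. Its difference was 0.46 ± 0.16 (limma adjusted p = 0.171), with no overlap of the groups. Ccnb2, a B-type cyclin that activates Cdk1, measured 8.56, 8.85 and 8.59 and then 9.35, 9.15 and 8.92, again without overlap (0.47 ± 0.17, limma adjusted p = 0.182). Ccna2, the A-type cyclin of S and G2, differed by 0.42 ± 0.28, and Foxm1, the transcription factor of the G2/M programme, by 0.13 ± 0.14. The kinases Plk1 and Aurka, which mature the centrosomes and start the spindle, differed by 0.04 ± 0.18 and 0.17 ± 0.14.

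Of the 9 kinetochore and spindle checkpoint genes 6 measured higher, with a median of 0.10. Apart from Mad2l1 the largest was the checkpoint kinase Bub1 (0.28 ± 0.25). The checkpoint protein Bub1b (0.10 ± 0.12), the kinase Ttk (0.14 ± 0.12), the centromeric histone Cenpa (0.15 ± 0.14) and Cenpf (0.02 ± 0.12) measured slightly higher. The Ndc80 complex subunits Ndc80 (-0.06 ± 0.11) and Nuf2 (-0.03 ± 0.16) and the kinetochore motor Cenpe (-0.10 ± 0.27) measured slightly lower, each within its standard error. The anaphase activator Cdc20 differed by 0.09 ± 0.14, and Ube2c, the ubiquitin-conjugating enzyme of the anaphase-promoting complex, by 0.33 ± 0.20.

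The 3 measured genes of the chromosomal passenger complex, which corrects attachments and guides cytokinesis, had a median of 0.13. Aurkb, its kinase, measured 8.22, 8.27 and 8.17 under vehicle and 8.58, 8.46 and 8.65 under E2 (0.34 ± 0.14, limma adjusted p = 0.253). Those groups did not overlap, while Birc5 (survivin, 0.02 ± 0.09) and Cdca8 (borealin, 0.13 ± 0.13) differed little. Among 10 spindle motors and microtubule proteins 7 measured higher (median 0.13). Nusap1, a microtubule bundler, led with 6.84, 7.35 and 6.88 against 7.66, 7.43 and 7.41 (0.48 ± 0.20, limma adjusted p = 0.253). Its vehicle replicate 2 came close to the lowest E2 array. Prc1, the crosslinker of the central spindle, differed by 0.30 ± 0.22, and the kinesin Kif23 had the lowest difference of all 39 genes, -0.16 ± 0.20. The other 7 were between -0.10 (Dlgap5) and 0.19 (Kif4).

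In the remaining groups Ect2, the exchange factor that activates RhoA at the cleavage furrow, differed by 0.13 ± 0.24 and Racgap1, which recruits it, by -0.03 ± 0.14. The 6 genes of chromosome structure had a median of 0.05. Mki67, the Ki-67 antigen used as a proliferation marker, measured 7.79, 8.57 and 7.97 under vehicle and 8.45, 8.30 and 7.82 under E2. Those groups overlapped, vehicle replicate 2 being the highest of all 6 (0.08 ± 0.27). Top2a, the topoisomerase that untangles chromosomes, overlapped too (0.07 ± 0.23), as did the condensin genes Smc2 (-0.05 ± 0.23), Smc4 (0.20 ± 0.21), Ncapg (0.01 ± 0.10) and Ncapd2 (0.03 ± 0.10).

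The epithelial median moved with single arrays. It was 0.02 with 23 of 39 genes higher without E2 replicate 1, and 0.20 with 37 of 39 higher without vehicle replicate 2. Without vehicle replicate 1 it was 0.06 and without vehicle replicate 3 it was 0.05. Epithelial markers had list means of 10.41, 10.99 and 9.35 under vehicle and 9.26, 9.44 and 9.54 under E2. Of these markers 18 of 19 measured lower with E2 (2 passed). By list mean, the markers and the 39 genes were both highest of the vehicle arrays on replicate 2. On E2 replicate 1 the markers were the lowest of the E2 arrays and the 39 genes the highest. Leukocyte markers had means of 8.33, 8.09 and 8.37 under vehicle and 8.90, 9.01 and 8.26 under E2, with 13 of 14 measuring higher (1 passed). Smooth muscle markers averaged 11.16, 10.90 and 11.09 and then 10.97, 10.79 and 10.60, with 1 of 7 passing as lower. Of the other markers 1 of 16 stromal and 1 of 8 endothelial passed as higher, and 1 of 6 mesothelial as lower. For these marker counts the shares of all probe sets were 1.77% called higher and 1.12% called lower. The part of these cell types in the mitosis gene values was not tested.

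**Figure D2:**
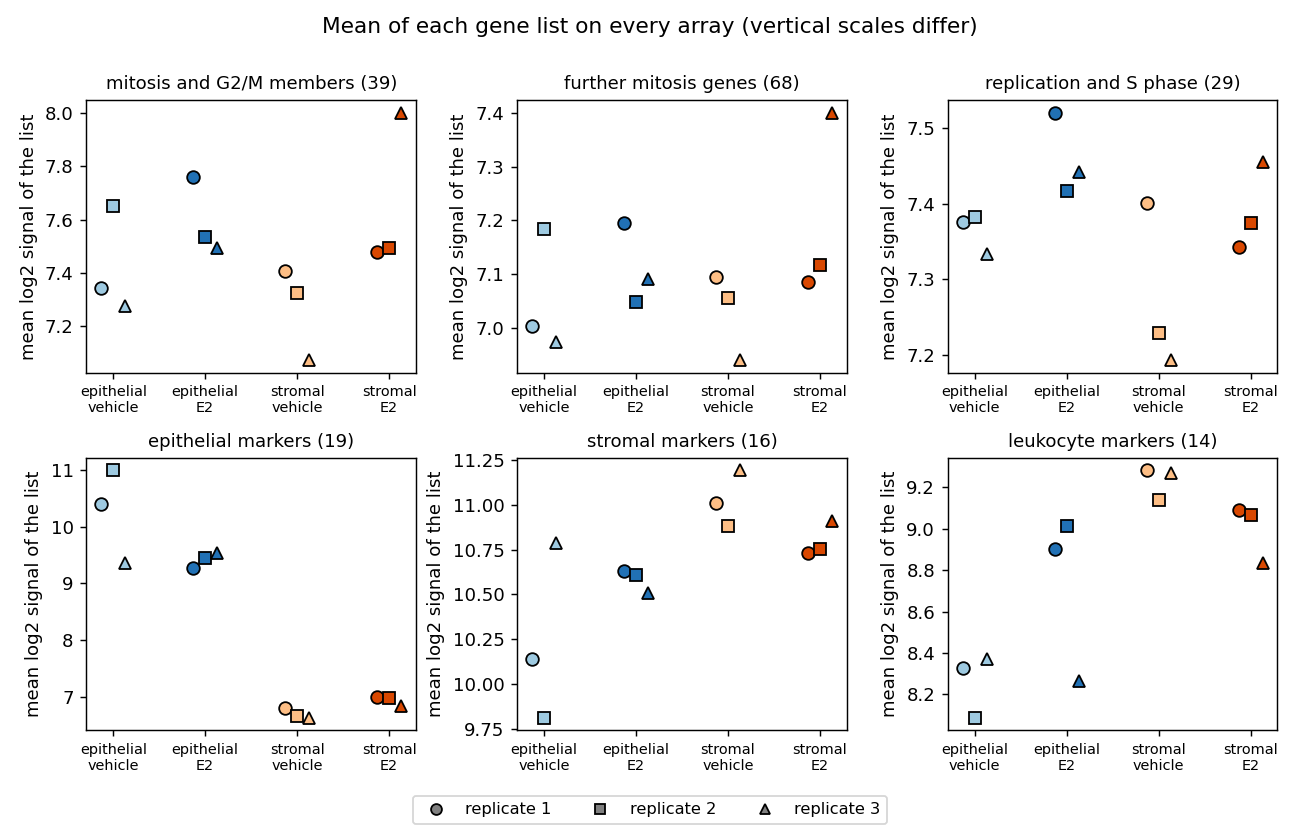
Mean log2 signal of each gene list (panel titles give the genes measured) on each of the 12 arrays by group, with 1 symbol per replicate and a different vertical scale in each panel. The 39 mitosis and G2/M genes reach 8.0 on stromal E2 replicate 3 and 7.07 on stromal vehicle replicate 3, and the epithelial markers peak at 10.99 on epithelial vehicle replicate 2.

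The second comparison put the same question to the stromal layer. Mad2l1 and Anln rose with E2, 2 of 39 genes, and 0 fell, where 1.52% of all probe sets were called higher and 1.98% lower. All 39 genes measured higher with E2, against 57.6% of all probe sets, with a median difference of 0.34 (0.03 over all probe sets) and a range from 0.03 to 1.21. The groups did not overlap for 22 of 39 genes, all higher with E2, where 15.9% of all probe sets were apart and higher and 14.6% apart and lower.

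Mad2l1 measured 8.75, 8.85 and 8.47 under vehicle and 9.46, 9.38 and 9.55 under E2 in stroma. The 3 E2 arrays lay close together, and all stood above the vehicle arrays. The difference was 0.77 ± 0.14, 1.71-fold (limma adjusted p = 0.0120). The call was lost when E2 replicate 3 (0.73, adjusted p = 0.0567), vehicle replicate 3 (0.66, adjusted p = 0.0598) or E2 replicate 1 (0.77, adjusted p = 0.0510) was left out. With both arrays numbered 3 left out the difference was 0.62 (adjusted p = 0.192). Each of those fits had fewer arrays.

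Anln measured 7.91, 7.96 and 7.41 under vehicle and 8.74, 8.80 and 9.37 under E2. The groups were apart, with vehicle replicate 3 the lowest and E2 replicate 3 the highest. The difference was 1.21 ± 0.27, 2.32-fold (limma adjusted p = 0.0336), the largest of the 39. Leaving out E2 replicate 3 gave 1.01 (adjusted p = 0.138), leaving out vehicle replicate 3 gave 1.04 (adjusted p = 0.149), and leaving out both gave 0.84 (adjusted p = 0.384). Leaving out any 1 of the 6 stromal arrays ended the call, with an adjusted p from 0.0596 to 0.149, as did leaving out epithelial E2 replicate 1 or 2 (0.0516 and 0.0539).

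Mitotic entry regulators measured higher in 6 of 6 in stroma, with a median of 0.46, and 0 passed. Cdk1 measured 8.54, 8.38 and 8.20 under vehicle and 8.82, 8.77 and 9.34 under E2, without overlap (0.61 ± 0.16, limma adjusted p = 0.0717). Ccnb2 measured 8.68, 8.45 and 8.13 and then 8.82, 8.84 and 9.26, also without overlap (0.55 ± 0.17, limma adjusted p = 0.130). Ccna2 measured 8.98, 8.57 and 8.22 and then 8.82, 8.76 and 9.74. Its groups overlapped, and E2 replicate 3 alone lay above the vehicle arrays (0.52 ± 0.28). Foxm1 (0.27 ± 0.14), Plk1 (0.40 ± 0.18) and Aurka (0.41 ± 0.14) had the smallest differences of the 6, Foxm1 and Aurka without overlap.

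The kinetochore and checkpoint genes measured higher in 9 of 9, with a median of 0.31. Bub1 measured 7.16, 7.07 and 6.94 under vehicle and 7.32, 7.24 and 8.10 under E2 (0.50 ± 0.25, limma adjusted p = 0.469). The groups did not overlap, but E2 replicates 1 and 2 stood only slightly above vehicle replicate 1. Nuf2 (0.42 ± 0.16) and Cenpf (0.30 ± 0.12) did not overlap either, while Cenpa (0.31 ± 0.14), Cenpe (0.34 ± 0.27), Bub1b (0.24 ± 0.12), Ttk (0.16 ± 0.12) and Ndc80 (0.08 ± 0.11) did. Cdc20 (0.39 ± 0.14) and Ube2c (0.54 ± 0.20) were both apart, with Ube2c at 8.78, 8.57 and 8.16 under vehicle and 8.97, 8.82 and 9.35 under E2.

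The 10 spindle genes all measured higher, with a median of 0.40, and 6 did not overlap between groups. Prc1 measured 7.41, 7.27 and 6.66 and then 7.51, 7.55 and 7.92 (0.55 ± 0.22, limma adjusted p = 0.286). Vehicle replicate 3 lay furthest below the rest. Nusap1 (0.52 ± 0.20), Hmmr, a spindle-associated hyaluronan receptor (0.51 ± 0.28), the spindle assembly factor Tpx2 (0.48 ± 0.17), the midzone kinesin Kif20a (0.43 ± 0.20) and the kinetochore fibre protein Dlgap5 (0.37 ± 0.15) were the others apart. The kinesins Kif2c (0.31 ± 0.16), Kif11, which separates the spindle poles (0.30 ± 0.21), Kif23 (0.28 ± 0.20) and Kif4 (0.27 ± 0.15) overlapped.

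Cytokinesis genes had the highest stromal median of the role groups, 0.76 over 3 genes, and all 3 were apart. Ect2 measured 7.49, 7.56 and 7.11 under vehicle and 7.93, 7.99 and 8.53 under E2 (0.76 ± 0.24, limma adjusted p = 0.131). The lowest E2 array was well above the highest vehicle array. Racgap1 differed by 0.30 ± 0.14. The chromosomal passenger genes had a median of 0.26, with Aurkb at 0.36 ± 0.14, Cdca8 at 0.26 ± 0.13 and Birc5 at 0.15 ± 0.09.

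Chromosome structure genes had the lowest stromal median, 0.24, and Ncapd2 alone of the 6 did not overlap (0.19 ± 0.10). Mki67 measured 8.28, 8.24 and 7.70 under vehicle and 8.04, 8.23 and 8.88 under E2 (0.31 ± 0.27, limma adjusted p = 0.805). E2 replicates 1 and 2 lay below vehicle replicate 1, and E2 replicate 3 above all. Top2a measured 7.87, 7.96 and 7.38 and then 7.66, 7.88 and 8.63, E2 replicate 3 alone lying above all vehicle arrays (0.32 ± 0.23). Smc4 (0.28 ± 0.21), Ncapg (0.21 ± 0.10) and Smc2 (0.03 ± 0.23) overlapped as well.

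The size of the stromal shift depended on the arrays numbered 3. The median of the 39 genes was 0.18 with 38 higher without E2 replicate 3, 0.28 with 38 higher without vehicle replicate 3, and 0.10 with 32 higher without both. In each of these 3 fits 0 of the 39 genes passed. Without E2 replicate 1 the median was 0.48 and 0 passed. Over the same arrays the stromal markers averaged 11.01, 10.88 and 11.19 under vehicle and 10.73, 10.76 and 10.91 under E2, the leukocyte markers 9.28, 9.14 and 9.27 and then 9.09, 9.07 and 8.83, and the epithelial markers 6.80, 6.65 and 6.63 and then 6.99, 6.99 and 6.84. The 7 smooth muscle markers averaged 11.81, 11.84 and 11.92 under vehicle and 12.09, 12.14 and 12.04 under E2. Of these 7, 6 were higher without overlap (15.9% of all probe sets) and 1 passed as higher (1.52% of all probe sets). Lower without overlap were 8 of 14 leukocyte and 7 of 16 stromal markers (14.6% of all probe sets), and 0 of either list passed. Of the leukocyte markers 1 was higher without overlap. In addition 1 of 19 epithelial markers passed as higher and 1 of 8 endothelial markers as lower (1.98% of all probe sets). The part of these cell types in the shift was not tested.

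**Figure D3:**
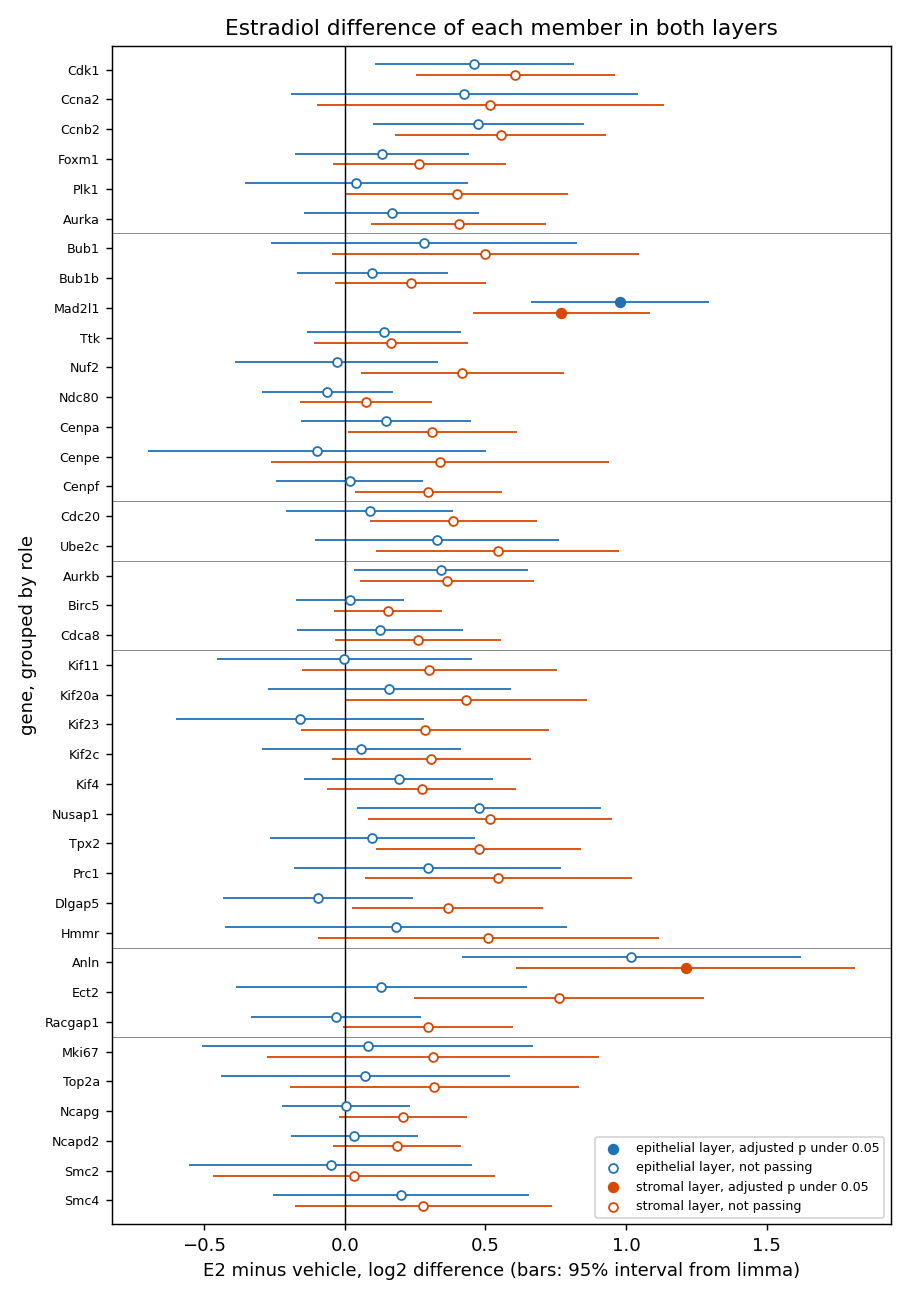
E2 minus vehicle log2 difference (horizontal axis) of each of the 39 genes in the epithelial layer (blue) and the stromal layer (orange), with 95% limma intervals as bars and filled points where the adjusted p is under 0.05. All 39 stromal points lie right of 0, 31 of the epithelial points do, and Mad2l1 in both layers and Anln in stroma are filled.

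The difference between the layers' responses was tested as an interaction. Of the 39 genes 0 passed in either direction by limma, where 0.641% of all probe sets were called higher in the epithelium and 0.269% lower. An unadjusted p under 0.05 was reached by 0 of 39 as well, and the lowest adjusted p was 0.504, for Dlgap5. The epithelial minus stromal differences ran from -0.63 (Ect2) to 0.21 (Mad2l1) with a median of -0.22. Mad2l1 was the 1 gene above 0 (2.56%, against 51.3% of all probe sets). Without stromal E2 replicate 3 the median was -0.03 with 14 genes above 0, without stromal vehicle replicate 3 it was -0.09 with 8 above 0, and without epithelial vehicle replicate 2 it was -0.12 with 9 above 0. For Ect2 the 95% interval was -1.36 to 0.10, and for Mad2l1 it was -0.24 to 0.65. A larger response in stroma was thus not shown by this test for any of the 39 genes.

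Averaging the E2 difference over both layers, a comparison added after the data were seen, took all 6 arrays of each treatment as independent. By this measure 4 of 39 genes rose and 0 fell, where 2.98% of all probe sets were called higher and 2.96% lower. They were Mad2l1 (0.87 ± 0.10, limma adjusted p = 0.000546), Anln (1.12 ± 0.19, 0.00616), Cdk1 (0.53 ± 0.11, 0.0184) and Ccnb2 (0.51 ± 0.12, 0.0291). In 38 of 39 genes the mean difference was above 0 (97.4%, against 58.8% of all probe sets), with Smc2 at -0.01 ± 0.16. The median was 0.22 (0.03 over all probe sets). Without stromal E2 replicate 3 the median was 0.14 with 35 genes above 0, and without stromal vehicle replicate 3 it was 0.18 with 37 above 0. Mad2l1 and Anln passed in 22 of 22 other settings, Cdk1 in 20 and Ccnb2 in 14. The layers were grown together, and a random block of treatment and number was not among those settings. The limma p-values of this average thus do not allow for arrays that share a co-culture. The Cdk1 call was lost without stromal vehicle replicate 3. The Ccnb2 call was lost without epithelial vehicle replicate 1, epithelial E2 replicate 1 or 2, stromal vehicle replicate 2 or 3, or stromal E2 replicate 2 or 3. Below these 4 came Nusap1 (0.50 ± 0.14, 0.0625), Aurkb (0.35 ± 0.10, 0.0646) and Ube2c (0.44 ± 0.14, 0.103).

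**Figure D4:**
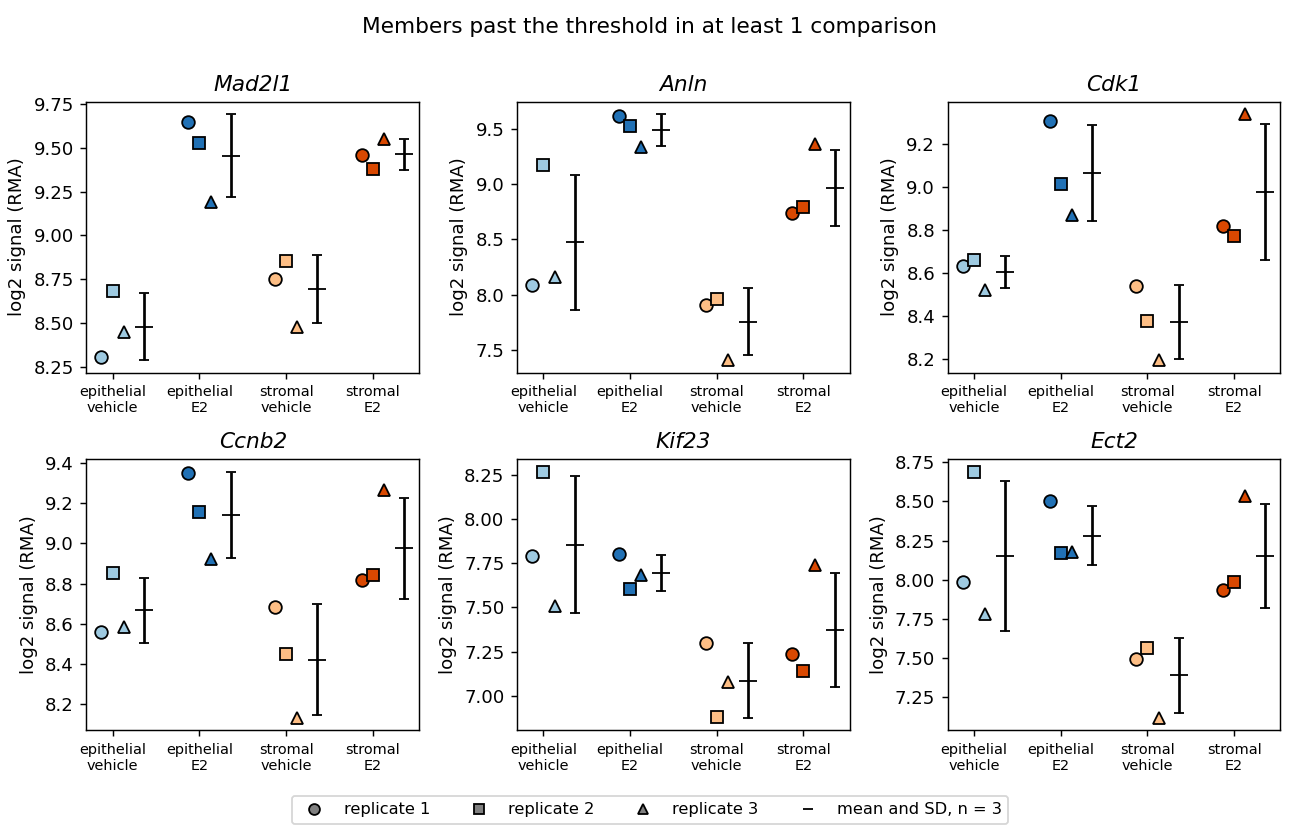
Log2 signal (vertical axis, different scale in each panel) of the 6 genes that passed in at least 1 comparison, by group, with 1 symbol per replicate and the mean and SD of 3 arrays beside them. Mad2l1 lies between 9.19 and 9.65 on all 6 E2 arrays and between 8.30 and 8.85 on all 6 vehicle arrays.

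The third comparison set the layers against each other under the same treatment. Under vehicle, Kif23 and Ect2 were higher in the epithelial layer, 2 of 39 genes, and 0 were lower, where 7.27% of all probe sets were called higher and 14.1% lower. Kif23 is the kinesin of centralspindlin, the complex with Racgap1 that brings Ect2 to the midzone. Racgap1 itself differed by 0.09 ± 0.14 and did not pass (limma adjusted p = 0.675). In all, 33 of 39 genes measured higher in the epithelium (84.6%, against 53.7% of all probe sets), with a median of 0.15 (0.02 over all probe sets). Without overlap, 6 were higher and 0 lower (14.6% and 21.3% of all probe sets). Those were Bub1b, Cenpa, Kif23, Kif2c, Anln and Ect2.

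Kif23 measured 7.79, 8.27 and 7.51 in the epithelial and 7.30, 6.88 and 7.08 in the stromal vehicle arrays. No stromal array reached the epithelial range. The difference was 0.77 ± 0.20, 1.70-fold (limma adjusted p = 0.0185), 0.56 without epithelial vehicle replicate 2 (adjusted p = 0.0386) and 0.77 without stromal vehicle replicate 3 (adjusted p = 0.0542). Without stromal vehicle replicate 2 it was 0.66 (adjusted p = 0.0788).

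Ect2 measured 7.98, 8.69 and 7.78 in the epithelial and 7.49, 7.56 and 7.11 in the stromal vehicle arrays. The groups did not overlap, and epithelial vehicle replicate 2 was the highest. The difference was 0.76 ± 0.24, 1.70-fold (limma adjusted p = 0.0388), and the call was lost without epithelial vehicle replicate 2 (0.49, adjusted p = 0.0775) or stromal vehicle replicate 3 (0.63, adjusted p = 0.142). Leaving out epithelial vehicle replicate 1 (adjusted p = 0.0586), stromal vehicle replicate 1 (0.0733) or 2 (0.0632), epithelial E2 replicate 2 (0.0520) or stromal E2 replicate 2 (0.0527) ended it too. The median of the 39 genes was 0.04, with 23 higher, without epithelial vehicle replicate 2, and 0.06, with 26 higher, without stromal vehicle replicate 3.

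Vehicle arrays of the layers with the same number deviated together (residual r = 0.175, 0.137 and 0.125), so the comparison was repeated with the number as a block. With the replicate block on all 12 arrays Kif23 passed (adjusted p = 0.0340) and Ect2 did not (0.0543). With the replicate block on the 6 vehicle arrays alone Ect2 passed (0.0446) and Kif23 did not (0.0941). With treatment and number together as a random block on all 12 arrays both genes passed, the lower limma adjusted p being 0.0157. Anln, the third gene with a large layer difference under vehicle, was 0.72 ± 0.27 higher in the epithelium and did not pass (limma adjusted p = 0.0903).

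Under E2 0 of 39 genes passed between the layers by limma, and 0 had an unadjusted p under 0.05, where 4.43% of all probe sets were called higher in the epithelium and 9.18% lower. In this comparison 13 of 39 measured higher in the epithelium (33.3%, against 53.8% of all probe sets), with a median of -0.08 (0.02 over all probe sets). Groups without overlap and higher in the epithelium numbered 0, against 17.6% of all probe sets, and 1 gene, Dlgap5, was lower without overlap (-0.31 ± 0.15), against 21.3% of all probe sets. Kif23 (0.32 ± 0.20) and Ect2 (0.13 ± 0.24) did not pass. Without stromal E2 replicate 3 the median was 0.09.

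Other genes of the cell cycle were read from lists of known function, in the fit on all 12 arrays alone. Of 68 further mitosis genes 2 rose and 0 fell with E2 in the epithelium, against 1.77% and 1.12% of all probe sets. Of the 68, 49 measured higher (72.1%, against 57.8% of all probe sets), with a median of 0.04 (0.03 over all probe sets). The 2 that rose were Ncaph, the condensin I kleisin, and Cks2, a Cdk1 subunit. Ncaph measured 7.24, 7.37 and 7.33 under vehicle and 7.97, 7.81 and 7.69 under E2, clearly apart (0.51 ± 0.12, limma adjusted p = 0.0418). Cks2 measured 9.55, 9.83 and 9.51 and then 10.51, 10.32 and 9.93, also apart (0.62 ± 0.14, limma adjusted p = 0.0414).

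In stroma Ncaph alone of the 68 rose, from 7.21, 7.06 and 6.91 to 7.43, 7.52 and 7.79 (0.52 ± 0.12, limma adjusted p = 0.0336). Over all probe sets 1.52% were called higher. Of the 68, 57 measured higher (83.8%, against 57.6% of all probe sets), with a median of 0.18 (0.03 over all probe sets). The mean of these 68 genes was 7.09, 7.05 and 6.94 on the stromal vehicle and 7.08, 7.12 and 7.40 on the stromal E2 arrays. Arrays numbered 3 were again the lowest and the highest. Over both layers Wee1, the kinase that restrains Cdk1, fell by 0.58 ± 0.14 (limma adjusted p = 0.0291), at 8.80, 9.44 and 8.72 to 8.40, 8.20 and 8.41 in the epithelium and 9.56, 9.28 and 9.93 to 9.05, 9.01 and 9.16 in stroma. In both layers every E2 array lay below every vehicle array.

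Genes for the anaphase-promoting complex, the ubiquitin ligase that Cdc20 activates, were listed with its regulators. Of these 15 genes 0 passed with E2 in either layer (medians 0.04 and 0.01). Of 22 genes of DREAM, Myb-MuvB and the E2F, retinoblastoma and Nfy families, 0 passed with E2 in either layer (medians 0.07 and 0.05). Over all probe sets 1.77% were called higher and 1.12% lower in the epithelium, and 1.52% and 1.98% in stroma. Averaged over both layers, E2f6 was higher with E2 (0.58 ± 0.14, limma adjusted p = 0.0288) and Nfyb lower (-0.41 ± 0.10, limma adjusted p = 0.0296). By that average 2.98% of all probe sets were called higher and 2.96% lower. Under vehicle 6 of the 22 were lower in the epithelium, as were 14.1% of all probe sets, among them E2f8, a repressor of E2F targets (-1.23 ± 0.15), Lin54, the MuvB subunit that binds the CHR (-0.70 ± 0.13), and Rb1, the retinoblastoma gene (-0.93 ± 0.28). In the list of 18 CDK inhibitors and G2 checkpoint genes, Gadd45a, a stress-induced inhibitor of Cdk1, rose (0.67 ± 0.10) and the p15 gene Cdkn2b fell by 0.60 ± 0.13 in the epithelium. Rprm, a G2 arrest gene, rose in stroma (0.52 ± 0.11).

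Replication and S phase genes, the step before mitosis, had 0 of 29 passing in the epithelium (20 higher, median 0.06) and 1 of 29 in stroma (26 higher, median 0.12). Over all probe sets 1.77% were called higher in the epithelium and 1.52% in stroma, and 57.8% and 57.6% measured higher. The stromal gene was Ccne1, cyclin E1 of S phase entry, at 8.69, 8.75 and 8.60 under vehicle and 9.02, 9.13 and 9.01 under E2. Every E2 array was above every vehicle array, and replicate 3 was not the highest (0.37 ± 0.08, limma adjusted p = 0.0226). The mean of the 29 genes was 7.40, 7.23 and 7.19 on the stromal vehicle and 7.34, 7.37 and 7.46 on the stromal E2 arrays, overlapping ranges. Between the layers under vehicle, 4 of 29 were higher and 0 lower in the epithelium, against 7.27% and 14.1% of all probe sets, namely the helicase genes Mcm6, Mcm7 and Mcm2 and the methylation factor Uhrf1. Under E2, 4 of 29 were higher and 2 lower, against 4.43% and 9.18% of all probe sets.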

How the data were processed

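The values were log2 signals deposited by the authors, from RMA per the submitters' processing notes, whose version and settings are not given in the sources used here. The table held 35556 probe sets and 12 arrays, with array medians of 7.38 to 7.43 over the 23410 probe sets with a symbol. Symbols came from the platform annotation, 21789 probe sets having 1 symbol and 1621 several. Whether a signal lay above background was not tested, and Kif4, Ttk and Ndc80 were dim.

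Group differences came from limma 3.58.1 under R 4.3.3 (lmFit, eBayes, two-sided), fitted to the deposited values of all 4 groups, with 8 residual and 3.27 prior degrees of freedom. Adjustment was over all 23410 probe sets with a symbol in each comparison. Members and lists were chosen with earlier results of these data known, and their counts carry no test. All 39 members are named. Of the other lists, up to 6 genes with the smallest p per list and comparison among those past the threshold could be named, and the text gives a selection. The procedure was tested on simulated data. For E2 in stroma it recovered 42% of 50 probe sets changed 1.5-fold and 90% of 50 changed 2-fold, so smaller differences were often missed.

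Replicate numbers came from the sample titles. Residuals of same-numbered arrays correlated at r = 0.175, 0.137 and 0.125 between the vehicle arrays of the layers. The main fit used no pairing, and these arrays were paired only in the alternatives with a block. The other pairings did not all exceed 0.1 (-0.419, 0.273 and 0.273 for vehicle and E2 in epithelium, 0.198, -0.0394 and 0.0261 in stroma, -0.313, 0.229 and -0.0633 between layers under E2). Alternatives were a filter at a group mean of 6, all probe sets, other scalings, a variance trend, array weights, averaged probe sets, other thresholds, blocks, fewer arrays and each array left out. The average over layers, the fit without both stromal arrays numbered 3 and the block on vehicle arrays were added after seeing the data.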

Additional observations from a re-analysis of the deposited data

How the results depend on the processing

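No gene that passed changed direction under any alternative run for it, while the untested median of the 39 genes between layers under E2 ran from -0.15 to 0.09 as 1 array was left out. With E2 in epithelium the 39 genes had 1 higher and all probe sets 678 calls. These were 2 and 1099 with quantile normalization, 5 and 4706 with array weights, 2 and 1289 at an adjusted p under 0.1, 0 and 49 on the 6 epithelial arrays, and 210 calls in all at 0.01. Leaving out 1 array gave 1 to 2 members and 219 to 1634 calls. In stroma 2 members and 820 probe sets passed. These were 1 member with all probe sets of the table, 4 with quantile normalization, 7 and 4503 with array weights, 0 and 361 at 0.01, 2142 calls on the 6 stromal arrays, and 0 and 266 without both arrays numbered 3 (median 0.10). Leaving out 1 array gave 0 to 3 members and 413 to 1342 calls. The layer difference had 213 calls, 128 with all probe sets, 4488 with array weights (1 member higher), 404 at 0.1, 46 at 0.01, and 81 to 725 without 1 array.

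Between layers under vehicle 2 members and 5001 probe sets passed, against 1 member with all probe sets, 9867 calls with array weights, 0 and 2709 at 0.01, 0 members on the 6 vehicle arrays, 1 member with the replicate block on 12 arrays, and 1 and 2803 with it on the 6 vehicle arrays. Leaving out 1 array gave 0 to 2 members. Under E2, 3184 calls became 11798 with array weights (3 members higher, 3 lower), 1652 at 0.01, and 1953 to 4636 without 1 array. The layer average had 4 members and 1390 calls, with 8 and 5311 under array weights, 2099 calls at 0.1, 2 and 576 at 0.01, and 2 to 7 members and 833 to 2049 calls without 1 array. The replicate block changed no other call of a member. The causes were not tested.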
